A study of Mus musculus with 13 samples.

Results

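The genes described here are 10 that encode enteroendocrine hormones and the proteins that make and package them: Pyy, Gcg, Sct, Cck, Sst, Insl5, Tph1, Chga, Chgb and Pcsk1. They were taken by name, as every probe whose gene name on the array was that of a member, and each of the 10 had 1 probe, out of 36163 genes and transcripts on the array. All tissue came from CPC-Apc mice (CDX2P-NLS Cre;Apc+/loxP), in which Cre recombinase under the CDX2 promoter deletes 1 Apc allele, so the controls carry the same deletion as the treated animals and normal tissue is not wild type. Treated mice received miR-200c, miR-302 (-a, -b, -c and -d) and miR-369 (-3p and -5p) in super carbonate apatite through the tail vein, at 25 µg of each. They were given 24 injections, 3 per week, from 8 weeks of age. Control mice are listed with the negative control microRNA, and the same schedule and start age were taken to hold for them. The 13 arrays were 2 of control normal tissue, 7 of control tumors, 2 of microRNA normal tissue and 2 of microRNA tumors. The labels call all of it colorectal tissue, do not tie samples to individual mice and do not exclude that several tumors came from 1 mouse, so every p-value below reflects the spread from sample to sample, which may be partly technical.

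Enteroendocrine cells are scattered single cells of the gut epithelium that sense the contents of the lumen and release peptide hormones or serotonin. They arise from crypt progenitors that express Neurog3, and each hormone is made by a subset of them that also depends on the position along the gut. Their hormones are stored in dense-core granules with the granins Chga and Chgb, after prohormone convertases such as Pcsk1 have cut the precursors. In the colon, Pyy, Gcg and Insl5 are typical of L cells, Sst of D cells and Tph1 of enterochromaffin cells, while Sct and Cck are known best from the small intestine.

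Levels are log2 values relative to the 75th percentile of the same array, so 0 is that percentile and a difference of 1 is a doubling. A level compares arrays for the same probe, and levels of different genes were not compared. In the mm9 coordinates that the files give, the probes for genes on the minus strand lie at chr11:101968311-101968370 for Pyy, chr2:62312685-62312744 for Gcg, chr7:148464238-148464297 for Sct, chr9:121398943-121399002 for Cck, chr16:23889776-23889835 for Sst, chr4:102690720-102690779 for Insl5 and chr7:53902553-53902612 for Tph1. Those on the plus strand lie at chr12:103803083-103803142 for Chga, chr2:132620703-132620762 for Chgb and chr13:75269727-75269786 for Pcsk1, and exon or UTR annotation was not used here. All 10 probes were well above background on the 4 normal arrays and none was saturated on any array. On the tumors, Insl5 was not well above background in control tumor 1, and Sst and Pcsk1 were not in control tumor 6. The probes for Gcg, Sst and Chgb were each spotted 10 times per array, and the SD among spots on 1 array was at most 0.122 for Gcg, 0.433 for Sst and 0.091 for Chgb. Because whole tissue was measured, fewer enteroendocrine cells and less RNA per cell cannot be told apart in any of the values.

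3 arrays stood apart from the rest in 1 marker of position along the gut. The level of Hoxb13, a Hox gene of the distal colon and rectum, was -1.57 in control tumor 1, -4.53 in control tumor 5 and -0.50 in microRNA normal 2. On the other 10 arrays it was between 5.65 and 6.63. Other distal Hox genes split the arrays differently. Hoxd13, named here after its values were seen, was not well above background on these 3 arrays. It was also not in control tumor 4 (-6.23), and it was -3.10 in microRNA tumor 2. Hoxa13 was -4.76 and -3.73 in control tumors 1 and 5, but -0.88 in microRNA normal 2, close to control tumor 7 (-0.86). Genes of small intestinal enterocytes (6 of 7 listed were tested) had a mean level of 3.26 on microRNA normal arrays and -0.34 on control normal arrays, and the group means of tumors were -3.07 (control) and -3.35 (microRNA). The microRNA normal arrays were higher for 2 of these 6 genes by the test described next, Fabp6 and Apoa4. In this comparison 0.532% of all genes were called, in either direction. Apoa4 was well above background on the 2 microRNA normal arrays only. It was kept for testing only through these 2 arrays, so its call is no separate support. Both microRNA normal arrays were high for the list (2.93 and 3.60), and treatment and the piece of gut sampled cannot be told apart here. The tumor differences of the 10 genes are given with and without the 3 arrays with low Hoxb13. The 75th percentile of intensity was 213.9 to 319.6 on normal arrays and 414.8 to 739.6 on tumors, between 50.7% and 57.0% of probes were well above background, and the arrays lay on 2 slides, 8 on slide 1 and 5 on slide 2. Both control normal arrays were on slide 2, with 1 array of each pair of microRNA arrays and control tumor 3.

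4 promoter stretches are shown because they hold the letters of 2 elements known from hormone genes; of their genes, Sst, Pcsk1 and Gcg passed the test as lower in tumors below and Chgb did not. The cAMP response element (CRE, TGACGTCA), first described in the Sst promoter, binds CREB, which links cAMP signalling to transcription. CAGATG is the form of the E-box (CANNTG) that the enteroendocrine factor Neurod1 is known to bind. Each line gives the 250 bases before the RefSeq start, 5′ to 3′ on the strand of the gene, from the GRCm38.p6 promoter table, with every CRE of Sst, Chgb and Pcsk1, and every CAGATG of Gcg, in capitals. The stretches lie at chr16:23890845-23891094 (minus strand) for Sst, chr13:75089607-75089856 (plus) for Pcsk1, chr2:132781392-132781641 (plus) for Chgb and chr2:62483654-62483903 (minus) for Gcg.
Sst: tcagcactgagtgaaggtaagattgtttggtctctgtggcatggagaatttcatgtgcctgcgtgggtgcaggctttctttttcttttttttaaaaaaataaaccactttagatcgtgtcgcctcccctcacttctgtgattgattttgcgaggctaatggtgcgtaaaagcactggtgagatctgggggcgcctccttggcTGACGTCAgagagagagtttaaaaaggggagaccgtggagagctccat
Pcsk1: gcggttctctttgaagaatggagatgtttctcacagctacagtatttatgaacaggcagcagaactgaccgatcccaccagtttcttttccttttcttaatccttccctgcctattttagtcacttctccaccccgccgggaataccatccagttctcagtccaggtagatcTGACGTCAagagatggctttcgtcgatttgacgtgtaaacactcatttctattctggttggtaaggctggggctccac
Chgb: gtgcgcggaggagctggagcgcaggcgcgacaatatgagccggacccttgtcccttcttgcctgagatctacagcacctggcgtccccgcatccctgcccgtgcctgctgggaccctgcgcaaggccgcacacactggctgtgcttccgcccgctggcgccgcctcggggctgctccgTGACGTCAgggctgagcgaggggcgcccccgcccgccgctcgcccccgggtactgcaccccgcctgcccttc
Gcg: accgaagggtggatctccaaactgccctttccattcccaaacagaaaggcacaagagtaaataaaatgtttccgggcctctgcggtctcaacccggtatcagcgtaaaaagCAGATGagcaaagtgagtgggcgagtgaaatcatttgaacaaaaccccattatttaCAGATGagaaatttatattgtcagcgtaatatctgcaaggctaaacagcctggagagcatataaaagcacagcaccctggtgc

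The CRE began 48 bases before the start in Sst, 72 in Chgb and 78 in Pcsk1, and the CAGATG matches of Gcg began 139 and 83 bases before it. Over windows of 300 bases (250 before the start and 50 after, searched on both strands), the full CRE was present for 3 of the 10 genes and for 2.03% of all 27025 genes, counting a gene with a match in any of its windows. Its core TGACG, which every full CRE contains, was found for 6 of the 10 genes and for 23% of all genes. CAGATG was found for Gcg, Sct, Cck and Insl5, and for 19.2% of all genes. These matches describe the sequence alone, since no binding was measured.

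Tumors were compared with normal tissue to find how the genes differ between tumor and normal tissue of the same genetic background. Over both groups of mice, 6 of the 10 genes were lower in tumors and 0 were higher: Sct, Sst, Gcg, Pcsk1, Chga and Cck. The test was limma's moderated test on all 13 arrays with treatment in the model and Benjamini-Hochberg adjustment over 25395 genes. By the same rule 31.4% of all genes were called, 19.7% as lower and 11.7% as higher. The median difference of the 10 genes was -2.01 on the log2 scale, and that of all genes tested was -0.11. The members below were also set side by side without a fit: 3 of the 10 (Gcg, Sst and Pcsk1) had all 9 tumors below all 4 normal arrays, and 10.5% of all genes did.

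**Figure D1:**
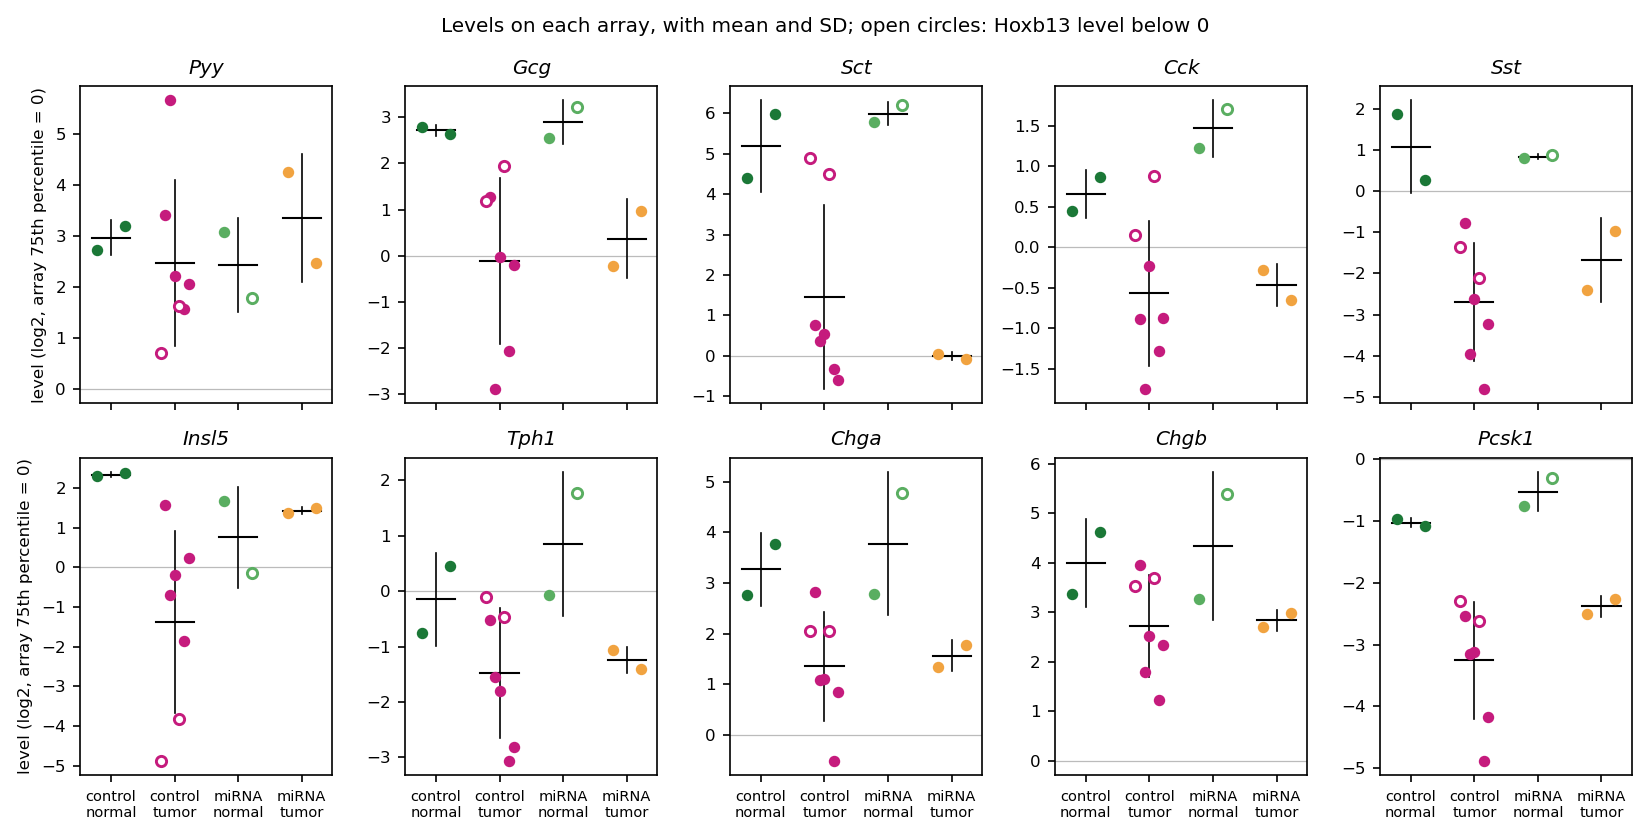
Level of each of the 10 genes (log2, array 75th percentile = 0) on every array, by group, with the group mean as a horizontal line and the SD as a vertical line (n = 2, 7, 2 and 2 arrays); each panel has its own axis. Open circles are the 3 arrays with a Hoxb13 level below 0: among tumors they are the highest for Sct, at 4.5 and 4.89, and the lowest for Insl5, at -3.83 and -4.87.

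Sst encodes somatostatin, the hormone of D cells that inhibits the release of other gut hormones. Its level on normal arrays was 1.88 and 0.28 (control) and 0.80 and 0.89 (microRNA). Control tumors ran from -4.81 through a median of -2.63 to -0.78, and the microRNA tumors were at -2.40 and -0.96. No tumor reached the lowest normal array, and the tumors differed among themselves by more than the normal arrays. Sst fell by 3.29 on the log2 scale, which is 9.78-fold (SE 0.70, limma adjusted p = 0.0057). Without the 3 arrays with low Hoxb13 the difference was -3.63 (adjusted p = 0.00899).

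Pcsk1 encodes prohormone convertase 1/3, which cuts proglucagon, procholecystokinin and other precursors to their active hormones. Its levels were -0.97 and -1.08 on control normal arrays and -0.75 and -0.30 on microRNA normal arrays. Control tumors ran from -4.88 to -2.30 with a median of -3.12, and the microRNA tumors were at -2.50 and -2.26. The 4 normal arrays lay close together and every tumor lay below them. Pcsk1 fell by 2.08 (SE 0.43, 4.24-fold, limma adjusted p = 0.00496), the smallest adjusted p of the 10 genes. The difference was -2.26 (adjusted p = 0.00641) without the 3 arrays with low Hoxb13. Sst and Pcsk1 carry a CRE in the stretches printed above, as does Chgb, which did not pass the test.

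Gcg encodes proglucagon, which L cells cut into the glucagon-like peptides GLP-1 and GLP-2. It stood at 2.79 and 2.63 on control normal arrays and at 2.55 and 3.22 on microRNA normal arrays. Control tumors ran from -2.88 to 1.95 with a median of -0.03, and the microRNA tumors were at -0.23 and 0.97. Normal arrays differed by less than 1 log2 unit while tumors differed by over 4, and the groups did not overlap. Gcg fell by 2.70 (SE 0.80, 6.5-fold, limma adjusted p = 0.0234). The call was lost without control normal 1 (-2.62, adjusted p = 0.0788) or control normal 2 (-2.70, adjusted p = 0.0789), and with no scaling between arrays (-1.71, adjusted p = 0.0862). Without the 3 arrays with low Hoxb13 the difference was -3.07 (adjusted p = 0.0165).

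Sct encodes secretin, the hormone of S cells that drives bicarbonate secretion. Its levels were 4.39 and 5.99 on control normal arrays and 5.79 and 6.20 on microRNA normal arrays. The control tumors ran from -0.60 to 4.89 with a median of 0.53, and the microRNA tumors were at 0.05 and -0.09. The tumors fell into clearly separate levels: control tumors 1 and 5, with low Hoxb13, were at 4.89 and 4.5, within the range of normal arrays, and the 7 tumors with high Hoxb13 were between -0.60 and 0.77. Over all arrays Sct fell by 4.63 (SE 1.05, 24.8-fold, limma adjusted p = 0.00763), and it fell by 5.29 (adjusted p = 0.000122) without the 3 arrays with low Hoxb13. The part of gut position in this difference was not tested beyond leaving out these arrays. Cdx2, a transcription factor of intestinal epithelium, was at 5.57 and 4.21 in control tumors 1 and 5 and between -1.23 and 2.92 in the other 7 tumors. On the 4 normal arrays, with high or low Hoxb13, Cdx2 was between 4.76 and 5.65. It was lower in tumors by 3.12 over both groups of mice (limma adjusted p = 0.0317).

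Cck encodes cholecystokinin, the hormone of I cells that contracts the gallbladder. It stood at 0.45 and 0.87 on control normal arrays, at 1.22 and 1.71 on microRNA normal arrays and at -0.28 and -0.65 in the microRNA tumors. Control tumors ran from -1.75 to 0.88 with a median of -0.88. Here too control tumors 1 and 5 were the highest tumors, at 0.15 and 0.88, and tumor 5 overlapped the normal arrays. Cck fell by 1.51 (SE 0.42, 2.84-fold, limma adjusted p = 0.0189), and it fell by 1.67 without the 3 arrays with low Hoxb13 (adjusted p = 0.0035). The call was lost without control normal 2 (adjusted p = 0.0679) and with no scaling between arrays, where the difference was -0.51 (adjusted p = 0.365).

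Chga and Chgb encode chromogranin A and B, acidic proteins that condense the granule contents and mark most enteroendocrine cells. Chga stood at 2.76 and 3.78 on control normal arrays, at 2.78 and 4.78 on microRNA normal arrays and at 1.35 and 1.78 in the microRNA tumors. In control tumors it ran from -0.51 to 2.83 with a median of 1.11. Only control tumor 2 reached the lowest normal arrays. Chga fell by 2.03 (SE 0.56, 4.09-fold, limma adjusted p = 0.0174), with an adjusted p of 0.0819 without control normal 2, and it was -1.04 (adjusted p = 0.144) with no scaling between arrays. Without the 3 arrays with low Hoxb13 Chga differed by -1.89 (adjusted p = 0.0333). Chgb stood at 3.37 and 4.62, and at 3.27 and 5.39, on control and microRNA normal arrays, at 2.69 and 2.99 in the microRNA tumors and from 1.23 through 2.52 to 3.95 in control tumors. Control tumors 1, 2 and 5 lay among the normal arrays, and the Chgb difference of -1.36 (SE 0.55, limma adjusted p = 0.0761) did not pass the test. Chgb passed with the slide as a block (-1.87, adjusted p = 0.0302) and with the array-name number as a random block (-1.51, adjusted p = 0.0447). In the other 14 of 16 alternative fits it did not pass, and differences ran from -2.4 to -0.37. Without the 3 arrays with low Hoxb13 it was -1.25 (adjusted p = 0.0987). With single arrays left out, Chgb passed in 0 of 13 fits.

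Tph1 encodes tryptophan hydroxylase 1, the first enzyme of serotonin synthesis in enterochromaffin cells. It stood at -0.75 and 0.45 on control normal arrays and at -0.07 and 1.77 on microRNA normal arrays. The microRNA tumors were at -1.07 and -1.41, and control tumors ran from -3.06 to -0.11 with a median of -1.55. Tumors overlapped control normal 1, and the difference of -1.63 (SE 0.59, limma adjusted p = 0.0536) missed the threshold narrowly. Of 16 alternative fits it passed in 6 and did not in 10, with differences of -3.17 to -0.63. Those that passed include normexp background correction (limma adjusted p = 0.0251) and the fit without the 3 arrays with low Hoxb13 (-1.60, adjusted p = 0.0385). With single arrays left out, Tph1 passed in 3 of 13 fits. Mast cells can express Tph1 as well, and of 6 tested mast cell genes 3 were higher in tumors (Mcpt2, Cma1 and Cpa3) and 0 lower. Of all genes, 11.7% were higher and 19.7% lower. The mean level of these mast cell genes was -2.99 to -2.11 on normal arrays and -1.68 to -0.18 in tumors, and its part in the Tph1 values was not tested.

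Pyy encodes peptide YY, which L cells release together with GLP-1 and which slows gut transit. It stood at 2.72 and 3.20 on control normal arrays, at 3.08 and 1.78 on microRNA normal arrays and at 4.24 and 2.47 in the microRNA tumors. Control tumors ran from 0.70 to 5.65 with a median of 2.05, and both extremes of all 13 arrays were control tumors. Tumors lay on both sides of normal tissue, and the difference was 0.06 (SE 0.79, limma adjusted p = 0.964), or 0.10 without the 3 arrays with low Hoxb13. Its 95% interval, -1.65 to 1.76, leaves room for changes in either direction. Within slide 2, where 2 tumors and 3 normal arrays were hybridized, Pyy was higher in tumors by 2.03 (limma adjusted p = 0.0449). Control tumor 3 had the highest Pyy (5.65) and the lowest Gcg (-2.88) of all arrays, both of them hormones of L cells.

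Insl5 encodes insulin-like peptide 5, a hormone of colonic and rectal L cells. It stood at 2.29 and 2.38 on control normal arrays, at 1.66 and -0.15 on microRNA normal arrays and at 1.36 and 1.5 in the microRNA tumors. Control tumors ran from -4.87 to 1.57 with a median of -0.69. The lowest tumors were control tumors 1 (-4.87) and 5 (-3.83) and the lowest normal array was microRNA normal 2 (-0.15), the same 3 arrays that had low Hoxb13. In the 7 tumors with high Hoxb13, Insl5 lay between -1.86 and 1.57. The difference over all arrays was -2.0 (SE 1.18, limma adjusted p = 0.21), and -1.80 (adjusted p = 0.0609) without the 3 arrays. The arrays with low Hoxb13 thus had the highest tumor levels of Sct and the lowest of Insl5.

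**Figure D2:**
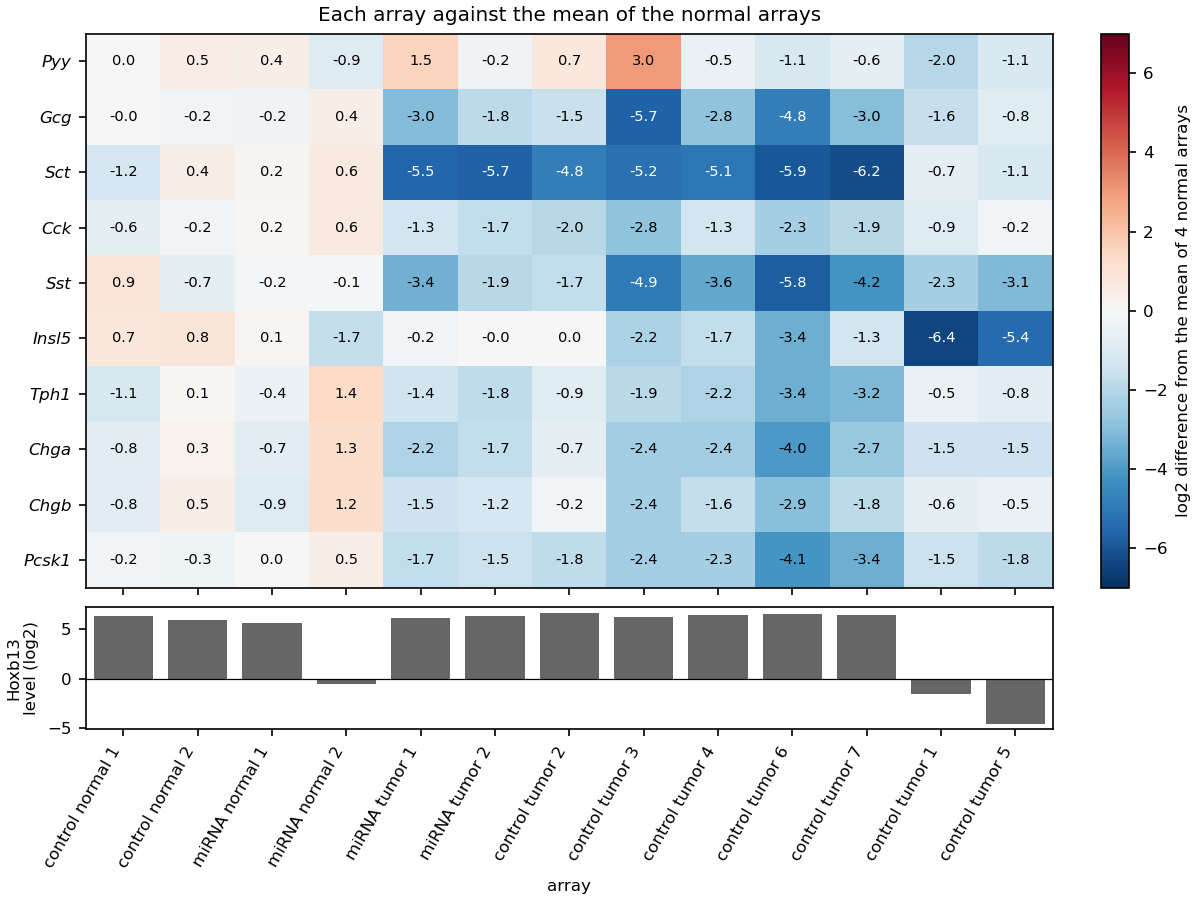
Upper panel: each array's log2 difference from the mean of the 4 normal arrays for the 10 genes, red above and blue below. Lower panel: Hoxb13 level (log2, array 75th percentile = 0) on the same arrays, with control tumors 1 and 5 at the right. All 10 genes were below the normal mean in 6 of the 9 tumors, and the exceptions in the other 3 were Pyy in microRNA tumor 1 and control tumor 3, and Pyy with Insl5 in control tumor 2.

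Across all 9 tumors, 8 of the 10 genes went up and down together, and Pyy and Insl5 did not follow them. For Insl5 with Chga, Chgb, Pcsk1 and Tph1, this rested on control tumors 1 and 5, as given below. The mean level of the 10 genes was highest in control tumor 2 (0.91), followed by control tumor 5 (0.57), microRNA tumor 2 (0.43), control tumor 1 (0.39) and microRNA tumor 1 (0.32). It was lowest in control tumor 6 (-1.60), below control tumors 7 (-0.64), 3 (-0.51) and 4 (-0.16), so both microRNA tumors lay inside the range of control tumors. Of the 45 pairs of genes, 35 had a Pearson r above 0 across the 9 tumors, with a median of 0.57; over all pairs of 13205 other named genes well above background in all tumors, the median r was 0.01 and 50.9% were above 0. All 28 pairs without Pyy and Insl5, a split made after the values were seen, had an r of 0.39 to 0.95, and the 16 pairs of Pyy or Insl5 with one of the other 8 genes had an r of -0.83 to 0.14; Pyy and Insl5 had an r of 0.58 with each other. Chga and Chgb were the most alike (r = 0.95, Spearman rho 0.97, and r = 0.91 without the 2 tumors farthest from the Chga median). Tph1 and Pcsk1 had an r of 0.90 that was 0.63 without the 2 tumors farthest from the Tph1 median, so it rests partly on them. Sct and Cck went from 0.75 to 0.09 without the 2 tumors farthest from the Sct median. With Chga, Chgb, Pcsk1 and Tph1, Insl5 had an r of -0.28 to 0.04 over all tumors. Without the 2 tumors farthest from the Insl5 median, control tumors 1 and 5, it was 0.77 to 0.90. Pairs of Insl5 with Gcg, Sct, Cck and Sst were trimmed by the medians of those genes. For Sct this left out the same 2 tumors, and r was 0.28. For Gcg, Cck and Sst it kept control tumor 1, so their r of -0.53 to -0.19 does not show Insl5 without these tumors. These correlations share array, depth of signal and scaling, and describe 9 samples only.

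The 6 genes most like the mean of the 10 across the tumors, of 13205 candidates with a symbol that were well above background in all 9, were Fam174b, Galnt7, Smim24, As3mt, Tnfsfm13 and Derl3. Their Pearson r was 0.98 to 0.99 and their Spearman rho 0.93 to 1. Within the 7 tumors on slide 1 r was 0.98 to 0.99, and without the 2 tumors farthest from the median it was 0.92 to 0.99. Galnt7 encodes an enzyme of mucin-type O-linked glycosylation, and it fell in tumors by 1.01 (limma adjusted p = 0.0199). Smim24 fell by 2.82 (adjusted p = 0.00314) and Tnfsfm13 fell by 1.07 (adjusted p = 0.0329). For Fam174b, As3mt and Derl3 the differences of -0.62, -0.36 and -0.13 did not pass. As the best of many candidates, these genes would stand high by selection alone.

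In control mice alone, all 10 differences were below 0, with a median of -2.07 against -0.09 for all genes, and 2 of the 10 genes were called, Sst and Pcsk1. Of all genes, 19.1% were called in this comparison, 10.9% as lower and 8.18% as higher. Sst fell by 3.78 (SE 0.90, 13.7-fold, limma adjusted p = 0.0193) and Pcsk1 fell by 2.23 (SE 0.57, 4.69-fold, adjusted p = 0.0239). With the slide as a block Pcsk1 was no longer called (-2.35, adjusted p = 0.0731) and Gcg was (-4.53, adjusted p = 0.0391), both control normal arrays and 1 of the 7 control tumors being on slide 2. Sct (-3.75, adjusted p = 0.0677), Insl5 (-3.71, adjusted p = 0.0721) and Gcg (-2.82, adjusted p = 0.079) had large differences that did not pass. Without control tumors 1 and 5 and microRNA normal 2, 6 genes were called: Sct (-5.04, adjusted p = 0.000804), Pcsk1, Cck, Sst, Gcg and Insl5 (-2.53, adjusted p = 0.0375). With control normal 1 or control normal 2 left out, 0 of the 10 were called by limma, and without control tumor 5 alone, 5 were. The 7 control tumors were all below both control normal arrays for 4 genes, Gcg, Sst, Pcsk1 and Insl5, and 18.9% of all genes did the same.

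In microRNA mice, 0 of the 10 genes were called by limma, and 5 had an unadjusted p under 0.05 (Sct, Cck, Pcsk1, Chga and Sst), as did 22.5% of all genes. Of all genes 3.18% were called, 1.76% as lower and 1.42% as higher. The largest difference was that of Sct, -6.01 (SE 1.67, adjusted p = 0.0739). It passed with normexp, without scaling, with the compared groups only and with the array-name number as a random block, but not in most alternatives. It was -5.81 without the arrays with low Hoxb13, which left 1 microRNA normal array. 8 of the 10 differences were below 0, with a median of -2.01. Pyy (0.92, 95% interval -1.84 to 3.69) and Insl5 (0.67, 95% interval -3.02 to 4.37) were above 0. Both microRNA tumors were below both microRNA normal arrays for the same 8 genes, and 33.2% of all genes did so.

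**Figure D3:**
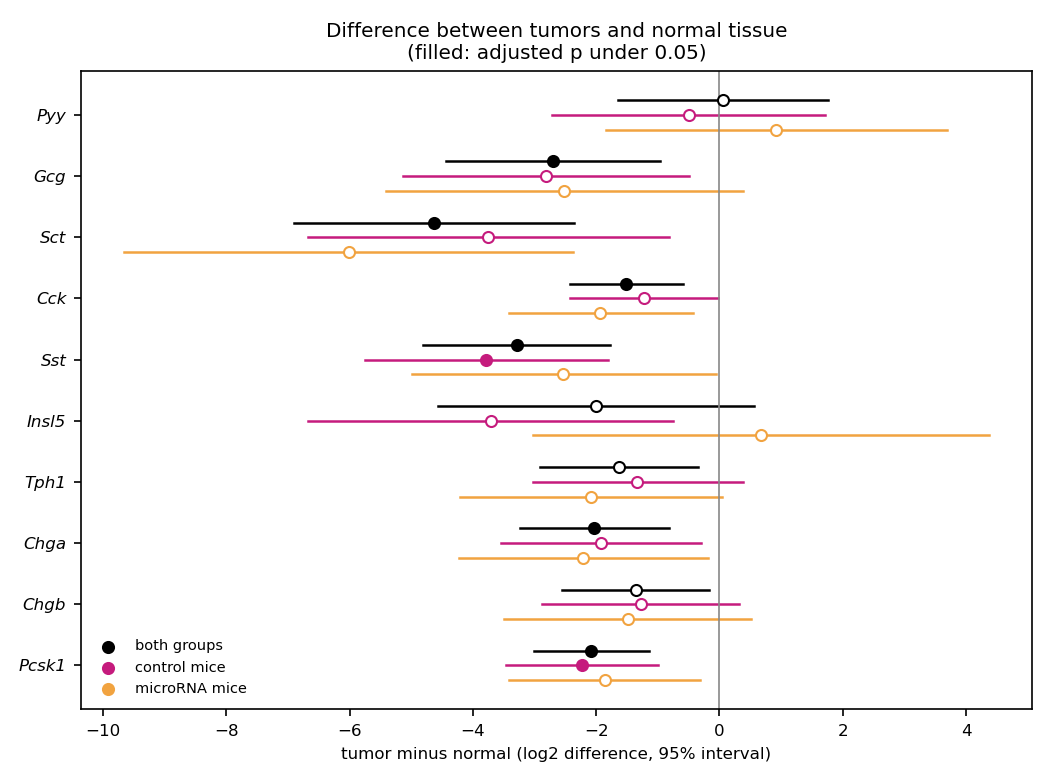
Tumor minus normal difference of each gene (log2) with its 95% interval, over both groups of mice (black), in control mice (magenta) and in microRNA mice (orange); filled points passed an adjusted p of 0.05. The intervals of Pyy cover 0 in all 3 comparisons, and that of Insl5 lies below 0 in control mice (-6.68 to -0.75) and reaches 4.37 in microRNA mice.

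The microRNA combination was compared with its control within each tissue. In tumors 0 of the 10 genes were called by limma, 0 had an unadjusted p under 0.05, and 0.00394% of all genes were called. In normal tissue 0 of the 10 were called, again 0 at an unadjusted p under 0.05, and 0.532% of all genes were called. In tumors Insl5 had the largest difference, 2.81 higher with the microRNAs (SE 1.36, unadjusted p = 0.0612, adjusted p = 1, 95% interval -0.15 to 5.77), and all 10 genes overlapped between the groups. Of all genes, 1.27% were lower in both microRNA tumors than in every control tumor, and 1.22% were higher. Without the arrays with low Hoxb13 the count was still 0. In normal tissue Cck and Pcsk1 were above both control arrays on both microRNA arrays, as were 22.4% of all genes, and Insl5 was below, as were 18.2%. With 2 microRNA tumors the intervals were wide, so changes of 2-fold or more remain possible for each gene.

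The tumor-normal differences of treated and control mice were also tested against each other. 0 of the 10 genes differed by limma, 0 at an unadjusted p under 0.05, and 0.28% of all genes were called. Insl5 had the largest difference between the effects, 4.39 (SE 2.17, 95% interval -0.35 to 9.13, adjusted p = 0.808). It was 2.30 without the arrays with low Hoxb13, 1 of which is in normal tissue of microRNA mice and the other 2 are control tumors. For Sct the difference was -2.27 (95% interval -6.94 to 2.41), and for the remaining 8 genes it was between -0.76 and 1.43.

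The numbers in the array names gave 3 sets of normal tissue and tumor. These were number 8 and number 2 in microRNA mice and number 10 in control mice. No label says what the numbers mark. Control tumors 1 and 2 shared number 5, and control tumors 4, 5, 6 and 7 shared number 6. The main fits treated every tumor as a separate sample, so their p-values do not account for shared numbers. Tumor minus normal within the 3 sets was -5.73, -6.30 and -5.62 for Sct, and -1.76, -1.96 and -2.08 for Pcsk1. It was -3.20, -1.86 and -4.25 for Sst and -2.78, -2.25 and -5.51 for Gcg. Pyy was higher in the tumor of all 3 sets, by 1.16, 0.68 and 2.44. Insl5 went in different directions, at -0.30, 1.65 and -3.07. The other 4 genes were lower in all 3 sets.

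Other genes of the enteroendocrine programme were examined as fixed lists, over both groups of mice, where 19.7% of all genes were lower and 11.7% higher. Of 6 tested genes for other gut hormones and peptides, 2 were lower and 0 higher: Nts, which encodes neurotensin, the hormone of N cells, fell by 4.01 (SE 0.69, limma adjusted p = 0.00225), and Gal, which encodes the neuropeptide galanin, fell by 1.45 (adjusted p = 0.00408). Ghrl, which encodes ghrelin, differed by -0.88 (adjusted p = 0.0838). Gip, Gast and Ucn3 were below the filter for dim probes. Nts was also called in each group of mice, at -3.01 in control mice and -5.57 in microRNA mice, and the difference between these was not called (adjusted p = 0.808). Genes of small intestinal enterocytes had a mean level of 3.26 on microRNA normal arrays and -0.34 on control normal arrays, and their part in the Nts values was not tested.

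Of 17 tested genes for granule proteins and hormone processing, 9 were lower and 1 higher, with a median of -1.23. Cplx2, a regulator of vesicle fusion, fell by 1.52 (limma adjusted p = 0.00187), and Scg3, a granin-binding protein of the granule membrane, fell by 2.53 (adjusted p = 0.00391). Cpe, the carboxypeptidase that trims the cut hormones, fell by 1.84 (adjusted p = 0.00539), and Pcsk1n, an inhibitor of Pcsk1, fell by 1.23 (adjusted p = 0.00672). The gene that was higher was Slc18a1, a vesicular monoamine transporter, by 2.05 (adjusted p = 0.0457), named here after its value was seen. In microRNA mice alone 0 of these 17 were called, and 3.18% of all genes were.

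Of 11 tested transcription factors of the lineage, 2 were lower and 0 higher, a share close to the 19.7% of all genes that were lower. Neurog3, which commits progenitors to the enteroendocrine fate, fell by 1.54 (SE 0.50, limma adjusted p = 0.0344), and Nkx2-2, which acts after it, fell by 0.97 (SE 0.27, adjusted p = 0.0179). Fev (-0.83, adjusted p = 0.0647) and Insm1 (-1.12, adjusted p = 0.0687) did not pass. Neurod1, Pax6, Rfx6 and Onecut3 were below the filter, so no value is given for the factor whose E-box was searched. The median of the list was -0.94.

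Of 10 tested nutrient and irritant sensors, 4 were lower and 1 higher. Kcnj11 and Abcc8, subunits of the ATP-sensitive potassium channel, were lower. Abcc8 fell by 1.5 (limma adjusted p = 0.0131), and Kcnj11, not well above background in any tumor, was at least 2.13-fold lower. The lower limit sets the mean of the brighter group against the dimmest reliable signal of each array of the other. Ffar2, a receptor for short-chain fatty acids, fell by 1.45 (adjusted p = 0.0342). Trpa1, an irritant channel of enterochromaffin cells, was 2.42 higher in tumors (adjusted p = 0.000578). Of 15 tested receptors and clearance genes for the hormones, 5 were lower and 1 higher, beside 19.7% and 11.7% of all genes. Sstr1, a somatostatin receptor, fell by 2.72 (adjusted p = 0.00243), Slc6a4, the serotonin transporter of the epithelium, fell by 2.18 (adjusted p = 0.0105), and Dpp4, which inactivates GLP-1, fell by 1.45 (adjusted p = 0.00754). Cckar, a cholecystokinin receptor, was not well above background in any tumor and was at least 2.52-fold lower. Kcnj11 and Cckar each passed the filter for dim probes only through 3 normal arrays. Both are in the counts of their lists as lower, but these calls are no separate support.

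**Figure D4:**
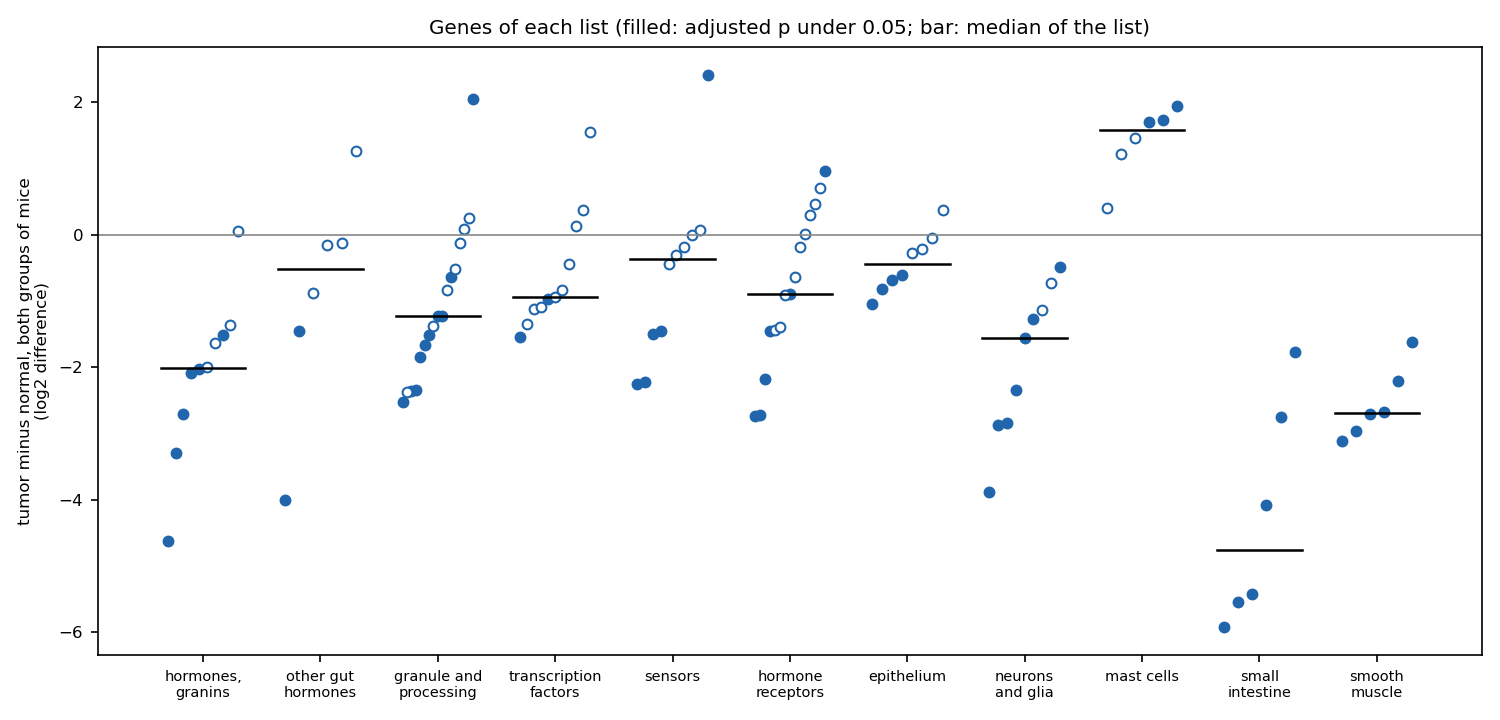
Tumor minus normal difference over both groups of mice (log2) for each tested gene of the lists, with filled points for an adjusted p under 0.05 and a bar at the median of the list. The lists of hormones and granins, granule proteins and neurons lie mostly below 0, with medians of -2.01, -1.23 and -1.56, as do small intestine and smooth muscle, and mast cell genes lie above 0.

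Several of these genes are also expressed in enteric neurons, and other cell types differed between tumors and normal tissue. The counts below stand beside 19.7% of all genes lower and 11.7% higher over both groups of mice. Of 9 neuronal and glial genes, 7 were lower in tumors and 0 higher (median -1.56), among them Sox10 (-1.27), Uchl1 (-2.35), Prph (-2.88) and Stmn2 (-2.85). The mean level of this list was -0.60 to 0.56 on normal arrays and -3.24 to -1.10 in tumors. All 6 smooth muscle genes were lower (median -2.68). All 6 tested genes of small intestinal enterocytes were lower as well (median -4.76), and 3 of them were called in control mice alone. Apoa4 is in the count of 6 but passed the filter only through the microRNA normal arrays. The part of small intestinal tissue in the values of Sct, Cck and Nts was not tested. Sst, Chga, Chgb, Scg3 and Gal can be neuronal as well as epithelial, and the part of fewer nerve cells in their values was not tested. Of 8 general epithelial genes 4 were lower and 0 higher, with a median of -0.44, and Epcam differed by -0.28 (adjusted p = 0.32). With each array centred on these 8 epithelial genes, the median of the 10 hormone and granin genes was -1.60 and that of all genes 0.31. Of 7 pancreatic markers, Ins1, Cpa1, Cpb1, Pnlip and Cela2a were below the filter. Ins2 was well above background on all 13 arrays and differed by -0.01, and Iapp, well above on 2 of 4 normal arrays and 8 of 9 tumors, differed by 1.27 (adjusted p = 0.322).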

How the data were processed

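Each sample gave 1 single-colour Agilent array (Cy3, from 35 ng of total RNA, per the labels' protocols). Images were read with Feature Extraction 10.7.3.1, per the file headers, and the values deposited by the authors are linear fluorescence intensity after background subtraction, with no scaling across arrays. The series-wide table deposited beside them repeats this intensity (largest relative difference 0). Depth has no counterpart on arrays, and the number of arrays limits the precision.

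Control spots (3671) were left out, spots marked as outliers (0.25%) were set to missing, and spots of a probe were averaged (55681 probes). The log2 intensity was reduced by the log2 of the array's 75th percentile. Probes well above background on at least 2 of 13 arrays were kept (35191), and the probe with the highest mean stood for a gene (25395 genes, 16847 with a RefSeq symbol). limma 3.58.1 was used for all tests (linear fits with empirical Bayes; R 4.3.3, data.table version 1.17.8), with p-values Benjamini-Hochberg adjusted over all genes tested and called under 0.05. The effect over both groups of mice came from a fit with additive terms for tissue and treatment, and the other contrasts came from a fit of 4 group means. The procedure was tested on simulated data. Promoter windows are those of RefSeq (GRCm38.p6), all 10 genes matched by symbol, while probe positions are in mm9, so the builds were kept apart. Plots were made in matplotlib 3.10.9 (Python 3.11.15).

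The genes, lists and tests were chosen with earlier results of these data known. Named genes were the 10 members, up to 4 genes of each list with the smallest p over both groups of mice, Hoxb13, Cdx2 and Epcam as references, and the 6 genes most like the members' mean among tumors; exceptions are marked. Alternatives covered background correction, scaling, filters, probe choice, fit, slide, replicate number, the number in the array name and leaving out each array. Leaving out the arrays with low Hoxb13 was added after seeing the data. In the control groups, the negative control is named by an abbreviation in the description only.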

Additional observations from a re-analysis of the deposited data

How the results depend on the processing

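Over both groups of mice, 6 of the 10 genes were called, and between 6 and 8 with normexp, quantile or median scaling, epithelial centring, other filters, probe choices and variance models, a slide block or the array-name number as a random block. The exceptions were 3 without scaling between arrays and 0 within slide 1, which held 1 normal array and where 10 of all genes were called; leaving out single arrays gave 3 to 7, with 3 without control normal 2. In control mice the main count of 2 became 5 with normexp, 1 without scaling, 7 within slide 2, 6 without the arrays with low Hoxb13 and 0 to 5 when single arrays were left out. Within slide 2 that count includes Pyy as higher, as does the count of 7 there over both groups. In microRNA mice the count of 0 became 2 with normexp. It became 1 without scaling, with the compared groups only and with the array-name number as a random block. When single arrays were left out it was 0 to 1. Leaving out the arrays with low Hoxb13 left 1 microRNA normal array, so no count is given for it. The causes of these shifts were not tested. Comparisons of microRNA with control arrays, in tumors or normal tissue, and the test between the tumor-normal differences called 0 of the 10 genes in all alternatives that could be fitted. Slide 1 held no control normal array, so comparisons that need one were not run within it.

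The replicate number of the labels was used as a block in a further fit. It gave 4 genes called over both groups of mice, 0 in control mice and 3 in microRNA mice (Gcg, Chga and Pcsk1). Same-numbered arrays of microRNA normal tissue and tumor deviated together (r = 0.42), and for other groups r was -0.19 to 0.33. The same-numbered microRNA arrays also shared the slide and the array-name number, and these cannot be told apart here. In groups of 2 arrays the deviations mirror each other, so both replicate numbers give the same r. With 2 shared numbers per pair of groups the numbers were not taken as pairing.

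Among the tumor-normal differences of single genes, directions changed for Pyy and Insl5 only. For the microRNA effect in tumors, where no gene was called, 1 of the 10 values was below 0 in the main fit and 7 with the replicate block; for the test between the tumor-normal differences it was 5, and 2 to 8 over the alternatives. Pyy in control mice (-0.50) was 0.55 without scaling, 1.68 with a slide block, 2.69 inside slide 2, 0.24 with the array-name number as a random block and 0.02 without the arrays with low Hoxb13. Over both groups of mice Pyy (0.06) was -0.27 without microRNA normal 2, -0.34 without microRNA tumor 1, -0.03 without control tumor 2 and -0.25 without control tumor 3, in a range of -0.34 to 0.37 over all arrays left out. Insl5 over both groups was 1.65 within slide 1, and in microRNA mice (0.67) it was -0.30 within slide 2, -0.23 without microRNA normal 2 and -0.23 without the arrays with low Hoxb13, and leaving out single arrays gave -0.23 to 1.58.

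Scaling set the balance over all genes: 37.3% of calls over both groups were higher in the main setting, 51.6% with quantile normalization, 50.8% with median scaling, 72.1% with epithelial centring, 21.1% with normexp and 95.5% without scaling, where the median of all genes was 0.89 and that of the 10 genes -1.02. The count of all genes called over both groups ran from 10 (within slide 1) to 15260 (no scaling), around 7974.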
